A study of Mus musculus with 6 samples.

Results

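The ephrin and semaphorin guidance systems were followed at the RNA level in mouse embryonic stem cells with and without E-cadherin. Members were all protein-coding genes whose symbol begins with Epha, Ephb, Efna, Efnb, Sema or Plxn, together with Nrp1 and Nrp2, which gave 53 of the 55401 genes in the count table. They were 28 ligands (8 ephrins and 20 semaphorins) and 25 receptors (14 Eph receptors and 11 plexins and neuropilins). The libraries came from the V6.5 line, an embryonic stem cell line from hybrid mouse embryos. The control group was wild type (WT), and the other group was Cdh1-/-, in which both alleles of the E-cadherin gene are disrupted. Each group had 3 libraries, A, B and C, and no treatment separated them. The labels do not say whether the knockout was 1 clone or several, nor whether the libraries of a group came from separate cultures, so p-values measure the spread between these libraries, which may be technical.

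Ephrins and Eph receptors signal between touching cells. Ephrins of the A type are held to the membrane by a lipid anchor and mainly bind EphA receptor tyrosine kinases, and ephrins of the B type span the membrane and mainly bind EphB receptors. Semaphorins are secreted or membrane-bound ligands of plexins, and most secreted ones need a neuropilin as a co-receptor. All of them are best known for steering axons and vessels and for keeping cell populations apart. Several Eph receptors are known to act at epithelial contacts that E-cadherin builds, and Ephb2 and Ephb3 are known targets of beta-catenin and TCF in the intestine.

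The total count per library ranged from 18020719 to 23381942. Cdh1 stood at 537 to 571 CPM (counts relative to library size after TMM scaling) in WT and at 166 to 183 CPM in the knockout (log2 change, knockout over WT, -1.70 with a standard error, SE, of 0.08, adjusted p = 2.9e-08). All 12 listed embryonic stem cell markers were tested. Klf4, Tdgf1 and Fgf4 were called higher and Klf2 lower, and Pou5f1, at a mean of 459 CPM (WT) and 506 CPM (knockout), was not called. The list summed to 5279 to 5830 CPM in WT and to 6069 to 7532 CPM in the knockout. Markers of other cell types moved with genotype too. All 12 tested extraembryonic endoderm markers, of 14 listed, were called higher (median log2 change 1.74, against -0.01 over all tested genes). Their summed level lay between 618 and 776 CPM in WT and between 1423 and 2467 CPM in the knockout. Of the transcription factors that define it, Gata4 went from a mean of 10.7 to 34.8 CPM, Gata6 from 4.43 to 11.9 and Sox17 from 1.96 to 8.67. Sox7 went from 2.74 to 12.4 and Foxa2 from 0.258 to 1.08. Foxa2 was at the floor in each WT library, and Afp was at the floor in every library. Gata4 and Sox7 lie on chromosome 14, where genes as a whole were higher in the knockout, and Sox17 lies on chromosome 1, where they were lower. The summed fibroblast list went from 1773 to 1929 CPM in WT to 1050 to 1201 CPM in the knockout, nearly all of it Fn1. Fn1 also lies on chromosome 1. Of the 10 tested fibroblast genes 1 was called higher (Pdgfra, which is on the endoderm list too). In the same list 3 were called lower (Acta2, Col1a1 and Fn1), while Lum and S100a4 were at the floor. The summed neural list went from 230 to 273 CPM in WT to 172 to 191 CPM in the knockout, with 1 of 9 tested genes called higher (Pou3f2), 4 lower (Pax6, Otx2, Map2 and Nes), and Neurog2 and Dcx at the floor. The trophoblast list summed to 210 to 249 CPM in WT and 138 to 196 CPM in the knockout (Elf5 at the floor). Of its 9 tested genes 0 were called higher and 2 lower (Tfap2c and Esx1). The endothelial list summed to 155 to 171 CPM and 137 to 174 CPM (Emcn at the floor). Of its 9 tested genes 2 were called higher (Eng and Flt1) and 1 lower (Pecam1). The part of these cell type markers in the changes below was not tested. In bulk RNA, fewer cells of a type and less RNA per cell cannot be told apart.

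Of the 53 members, 46 had enough counts for the test and 9 were called, which means an adjusted p under 0.05 in the quasi-likelihood test of edgeR. Of these, 5 stood higher in the knockout and 4 lower. That is 19.6% of the tested members, beside 13.3% of all tested genes, 7.6% called higher and 5.71% called lower. The genes called higher were the ligand gene Sema5b and the receptor genes Plxnb2, Epha2, Plxna1 and Ephb2. The genes called lower were the ligand genes Sema3e and Sema6a and the receptor genes Nrp2 and Plxna2. The median log2 change of the tested members was 0.04. Sema3e, Sema5b, Plxnb2 and Plxna1 were called in each of the 16 alternative settings, and each of the other 5 lost its call in at least 4 of the 6 fits that left out 1 library, except Nrp2, which lost it in 3.

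The count of called members differed between settings, as did the share of all genes called. At an adjusted p under 0.01 it was 4 members (7.17% of all tested genes), with every gene of at least 1 count tested 15 (8.63%), with RLE scaling 9 (13.2%), with DESeq2 10 (7.49%), and with the medians of chromosomes 1 and 14 removed 6 (9.84%). Without WT replicate A or B it was 5 (7.72% and 8.18%), without knockout replicate B 4 (9.22%), without knockout replicate C 6 (8.85%) and without knockout replicate A 14 (15.5%).

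**Figure D1:**
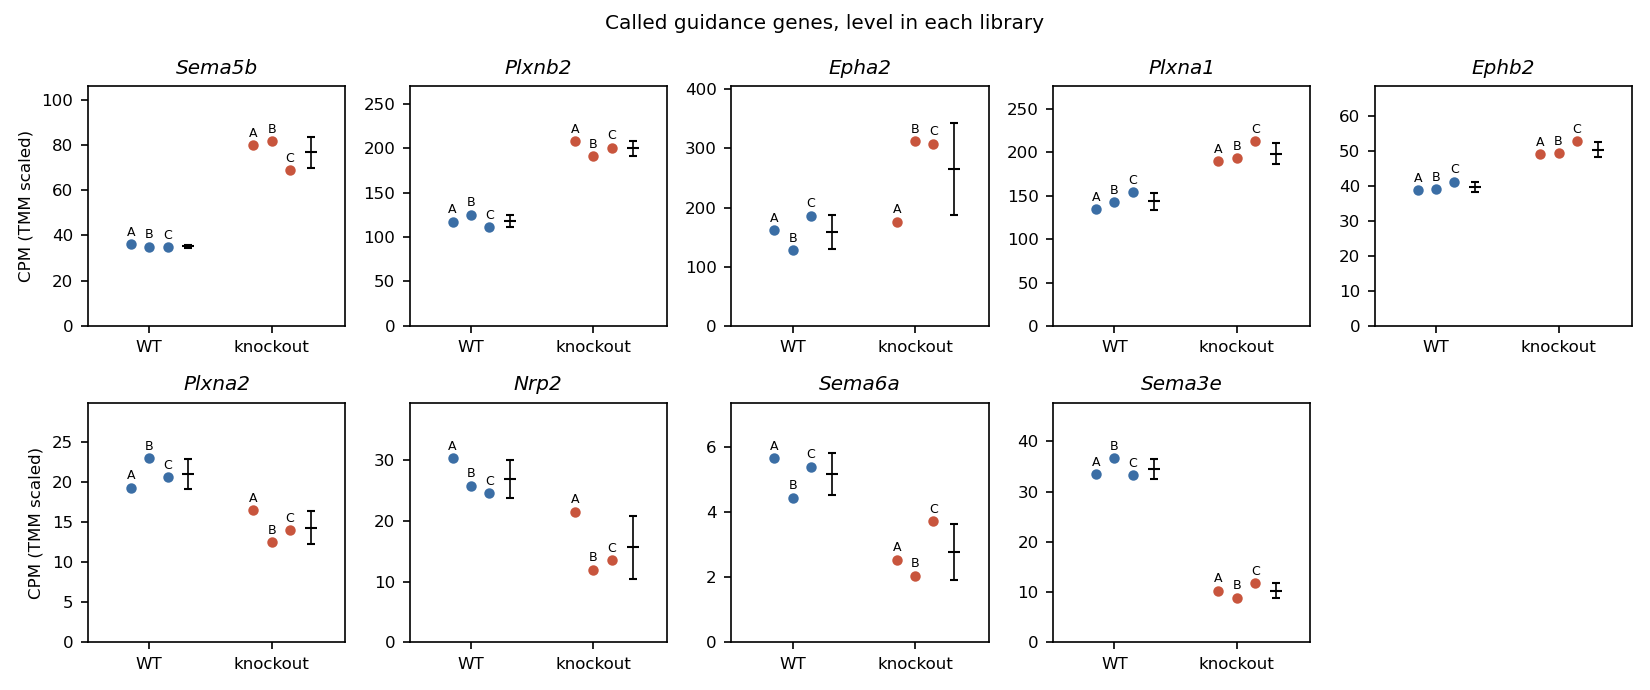
Level of the 9 called guidance genes in each library, in CPM after TMM scaling on a linear axis from 0. Points are libraries A, B and C of WT (blue) and the Cdh1 knockout (red), and bars give the mean and SD of 3 libraries. Of the 9 genes, Epha2 is the only one whose groups overlap, with knockout library A at 176 CPM below WT library C at 186 CPM.

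**Figure D2:**
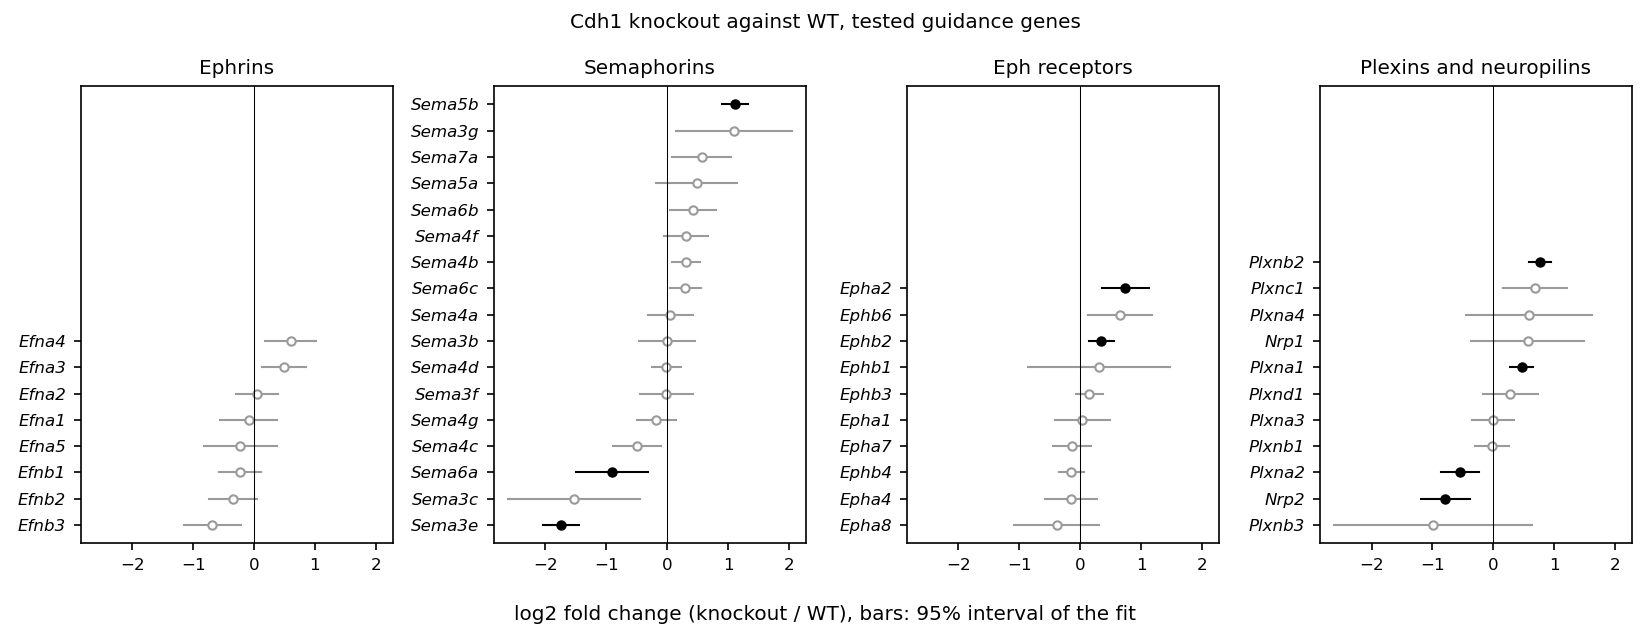
Log2 change of the 46 tested guidance genes, knockout over WT, in 4 classes, with the 95% interval of the fit. Filled black points are called genes and open grey points are not. Sema3e at -1.74 and Sema5b at 1.12 mark the ends of the called range.

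Among ligands, the ephrins came first. All 8 ephrin genes were expressed and tested, and 0 were called, with log2 changes from -0.69 to 0.60 (median -0.15). Before adjustment 2 ephrins passed 0.05 with a higher level and 1 with a lower one (all tested genes 14.1% and 12.6%). In the 15 other fits, Efnb3 was called lower in 7 and Efna4 higher in 4, with DESeq2 among them for both. Per kilobase of exon, the scale on which genes can be compared, Efna2 was the most abundant in WT at 5.999 ± 0.998 CPM per kilobase, ahead of Efna4 at 4.67 ± 0.320, Efnb3 at 3.81 ± 0.967 and Efna3 at 3.70 ± 0.587 (SD, n = 3). From Efnb3 down to Efnb2 at 3.34 ± 0.839, the levels of 5 ephrins differed by less than the SD of Efnb3. Efna5 was lowest at 1.01 ± 0.216. Summed over the family, ephrin RNA was 29.7 ± 3.40 CPM per kilobase in WT and 30.8 ± 1.23 in the knockout.

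Among the A ephrins, 3 had values above 0 and 2 below. Efna4, a lipid-anchored ligand, was at 7.29, 8.03 and 7.05 CPM in WT A, B and C and at 8.79, 11.1 and 14.1 CPM in the knockout libraries. The groups did not overlap, as in 15.7% of all tested genes with a higher knockout, but the log2 change of 0.60 (95% interval 0.19 to 1.02) missed the threshold with an adjusted p of 0.0549. Efna3 was at 7.20, 9.90 and 9.10 CPM in WT and at 12.2, 12.1 and 12.5 CPM in the knockout (log2 change 0.49, adjusted p = 0.0728). Efna1, Efna3 and Efna4 are neighbours on chromosome 3 between 89271733 and 89338028 (GRCm38). Efna1 had a log2 change of -0.08 (95% interval -0.55 to 0.38). Genes on the opposite strand cover 14.6% of the exon bases of Efna3 and 10.5% of those of Efna4, and these genes, Gm15998 and 4731419I09Rik, averaged at most 0.681 CPM.

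The 3 transmembrane ephrins all had values below 0. Efnb3 was at 11.7, 15.4 and 9.30 CPM in WT and at 9.01, 7.91 and 5.65 CPM in the knockout, so that every knockout library lay below every WT library. Its log2 change was -0.69 (95% interval -1.16 to -0.22, adjusted p = 0.0521). Efnb2, a ligand of Ephb4, had a log2 change of -0.34 (adjusted p = 0.259) and Efnb1 one of -0.23 (adjusted p = 0.398). Summed per kilobase, the B ephrins gave 10.8 ± 1.96 in WT and 8.11 ± 0.821 in the knockout, while the A ephrins gave 18.9 ± 2.61 and 22.6 ± 1.97. Those sums carry no test.

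Among the 20 semaphorins, 17 were tested, 1 was called higher and 2 lower (17.6%, beside 13.3% of all tested genes), and 3 (Sema3a, Sema3d and Sema6d) stayed at or under 0.606 CPM in every library. The semaphorins held both the largest fall and the largest rise of all called guidance genes. Sema3e encodes a secreted semaphorin that, unlike its relatives, can bind a plexin, plexin D1, without a neuropilin. It was at 33.4, 36.7 and 33.3 CPM in WT A, B and C and at 10.3, 8.91 and 11.8 CPM in the knockout libraries. The groups were far apart, and the level in the knockout was 3.34-fold lower (log2 change -1.74, SE 0.14, adjusted p = 2.5e-06). Over the 6 fits that left out 1 library the log2 change lay between -1.84 and -1.63.

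Sema3e (ENSMUSG00000063531.7) spans chromosome 5 from 14025276 to 14256689 on the plus strand. It lies among 3 other genes of its class, Sema3d, Sema3a and Sema3c, but of these Sema3c alone had enough counts for the test. Sema3c was at 2.52, 1.16 and 1.80 CPM in WT and at 0.442, 0.349 and 1.11 CPM in the knockout, which is lower in each library but missed the threshold (log2 change -1.53, 95% interval -2.61 to -0.45, adjusted p = 0.0604). It was called in 5 of the 14 other fits that gave it a value: with every gene tested, with counts divided by 2, with the replicate block, in limma-voom and without knockout replicate C. Sema3b and Sema3f, both on chromosome 9, had log2 changes of 0.00 (95% interval -0.45 to 0.46) and -0.02 (-0.45 to 0.42). The summed level of the Sema3 class was 9.54 ± 0.489 CPM per kilobase in WT, of which Sema3e gave 5.03 ± 0.284, and 5.98 ± 0.582 in the knockout, of which it gave 1.51 ± 0.211. Plxnd1, which encodes the receptor of Sema3e, was at 15.2, 14.4 and 11.4 CPM in WT and at 23.5, 12.7 and 13.7 CPM in the knockout. Its groups overlapped, knockout A being the highest library (log2 change 0.28, 95% interval -0.17 to 0.73, adjusted p = 0.445).

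The bases before the start site of Sema3e are shown because it is the member with the largest called change, beside those of Plxnb2, the receptor gene with the smallest adjusted p, and of Nrp2, the member that holds a TCF motif. RefSeq windows of 250 bases before the start (build GRCm38.p6) were found for 47 of the 53 members, and exonic bases were left off. The called members Plxna1 and Sema6a had no window. The RefSeq start used for Sema4d lies 37064 bases from its GENCODE start. Those of Epha10, Sema3c and Epha6 lie 886, 535 and 283 bases away, also more than the 250 bases of a window. Capitals mark CG dinucleotides in the first pair of sequences and the motif CTTTGAT in the last. The Sema3e stretch is chr5:14025026-14025275 on the plus strand, the Plxnb2 stretch is chr15:89180789-89181038 on the minus strand, and the Nrp2 stretch is chr1:62703067-62703284 on the plus strand.
Sema3e: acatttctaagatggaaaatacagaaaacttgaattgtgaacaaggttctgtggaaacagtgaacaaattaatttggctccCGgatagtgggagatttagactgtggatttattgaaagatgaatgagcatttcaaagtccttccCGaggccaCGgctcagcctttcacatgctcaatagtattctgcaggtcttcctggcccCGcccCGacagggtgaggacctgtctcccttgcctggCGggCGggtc
Plxnb2: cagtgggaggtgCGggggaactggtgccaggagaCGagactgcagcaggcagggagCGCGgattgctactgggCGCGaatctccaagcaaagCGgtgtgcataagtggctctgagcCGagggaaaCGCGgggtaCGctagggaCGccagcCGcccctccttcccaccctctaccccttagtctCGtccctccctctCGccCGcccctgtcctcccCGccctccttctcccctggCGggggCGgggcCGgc
Nrp2: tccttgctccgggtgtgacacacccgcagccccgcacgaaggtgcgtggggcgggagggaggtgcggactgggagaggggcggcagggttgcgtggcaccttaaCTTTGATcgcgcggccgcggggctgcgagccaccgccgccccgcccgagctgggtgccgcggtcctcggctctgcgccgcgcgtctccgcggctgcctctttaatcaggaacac

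The median member window, 1 per gene, held 16 CG dinucleotides and 64.4% G or C, beside 6 and 52.4% over all 32851 windows. That wider set was not limited to 1 window per gene or to protein-coding genes. Neither this contrast nor the motif shares below therefore compare like sets. Sema3e held 7 CG dinucleotides at 48% G or C, below the median member, and Plxnb2 held 20 at 69.2%. The TCF motif CTTTGAT, searched on both strands, was found in 1 of the 47 member windows (2.13%) and in 3.21% of all windows. That member was Nrp2, with the motif starting 146 bases before the RefSeq start, which lies 32 bases inside the GENCODE gene. A match is a run of letters and no evidence of binding.

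Sema5b was the strongest riser. It encodes a transmembrane semaphorin with thrombospondin repeats that has been described as a ligand of plexins A1 and A3 in the retina, and it lies on chromosome 16 from 35541362 to 35664261. Its level was 36.01, 34.96 and 34.81 CPM in WT and 79.8, 81.5 and 68.7 CPM in the knockout. The WT libraries were nearly equal, and the knockout was 2.17-fold higher (log2 change 1.12, SE 0.10, adjusted p = 6.2e-06). Per kilobase it was the fourth semaphorin in WT at 7.59 ± 0.140 and the second in the knockout at 16.5 ± 1.495. Its relative Sema5a was at 2.43 to 4.28 CPM in WT and at 3.32 to 6.66 CPM in the knockout and was not called (log2 change 0.49, adjusted p = 0.348).

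Sema6a, a transmembrane semaphorin that binds plexins A2 and A4, was called lower at a low level. Its levels were 5.67, 4.45 and 5.40 CPM in WT and at 2.54, 2.05 and 3.73 CPM in the knockout, 1.87-fold lower without overlap (log2 change -0.90, SE 0.28, adjusted p = 0.0435). Leaving out 1 library ended its call in 5 of 6 fits, with adjusted p from 0.0615 to 0.169, and it held without knockout replicate C (0.0244). Sema6b and Sema6c had log2 changes of 0.42 (adjusted p = 0.134) and 0.30 (adjusted p = 0.127). The tested Sema6 genes had values on both sides of 0.

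Sema4 genes supplied most semaphorin RNA per kilobase, 50.9 ± 1.26 of 79.4 ± 2.13 in WT. In the reported edgeR fit 0 of the 6 were called, with 1 in each direction past 0.05 before adjustment. They encode membrane-bound ligands of B plexins and other receptors. Sema4b was the most abundant semaphorin at 20.2 ± 0.830 CPM per kilobase in WT and 25.0 ± 3.70 in the knockout. It was at 83.7, 77.4 and 82.6 CPM in WT and at 84.4, 104 and 114 CPM in the knockout, with library A of the knockout just above the WT range (log2 change 0.31, adjusted p = 0.0729). Without knockout replicate A it was called (log2 change 0.42, adjusted p = 0.00365), as it was with every gene of at least 1 count tested (adjusted p = 0.0167). Sema4c was called lower with every gene tested (adjusted p = 0.0474), and Sema4g was called lower without knockout replicate A (adjusted p = 0.0353). Sema4d, a ligand of plexin B1, was second per kilobase in WT at 11.09 ± 0.0944 against 10.98 ± 1.64 in the knockout (log2 change -0.02, 95% interval -0.26 to 0.22). Sema7a, the lipid-anchored ligand of plexin C1, had a log2 change of 0.57 (adjusted p = 0.125).

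Receptors were described next, the Eph receptors before the plexins. Of 14 Eph receptor genes 10 were tested, 2 were called higher and 0 lower (all tested genes 7.6% and 5.71%). Before adjustment 3 passed 0.05, all with a higher level, as did 14.1% of all tested genes. Epha3 had 0 CPM in all 6 libraries, and Epha5, Epha6 and Epha10 did not exceed 0.315 CPM. Epha2 dominated the family with 40.6 ± 7.41 CPM per kilobase in WT, 49.1% of the summed Eph receptor level, followed by Ephb4 at 16.1 ± 1.43 and Ephb3 at 8.59 ± 0.304. In the knockout Epha2 stood at 67.8 ± 19.7, which was 61.8% of the sum.

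Epha2 encodes a receptor for A ephrins that is known to sit at epithelial cell contacts, and it lies on chromosome 4 from 141301240 to 141329384. Its level was 162, 128 and 186 CPM in WT A, B and C and 176, 312 and 308 CPM in the knockout libraries. Knockout B and C lay well above all WT libraries, and knockout A lay among them. The gene was called at a log2 change of 0.74 (SE 0.18, adjusted p = 0.0125). The adjusted p was 4.8e-06 without knockout replicate A and 0.0187 without WT replicate C, but leaving out WT replicate A (0.0539), WT replicate B (0.098), knockout replicate B (0.0798) or knockout replicate C (0.0687) ended the call, as did DESeq2 (0.0645). Knockout A also stood apart over all genes: on the second principal component, which held 20.9% of the variance, it was at 43.5 and the other libraries between -25.8 and 8.99.

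Ephb2, a receptor for B ephrins, made a smaller and steadier step. It was at 38.8, 39.1 and 41.3 CPM in WT and at 49.1, 49.4 and 52.8 CPM in the knockout, without overlap (log2 change 0.35, SE 0.10, adjusted p = 0.028). Leaving out 1 library kept the log2 change between 0.32 and 0.38, but the call held only without knockout replicate A (adjusted p = 0.0237) and the adjusted p was 0.0513 to 0.117 in the other 5 fits. Ephb3 and Ephb4 had log2 changes of 0.15 (95% interval -0.07 to 0.37) and -0.15 (-0.35 to 0.06). Ephb6, whose kinase domain is inactive, was at 3.00 to 3.60 CPM in WT and at 4.11 to 5.75 CPM in the knockout (log2 change 0.66, adjusted p = 0.101). Summed per kilobase, the EphB receptors gave 29.2 ± 1.29 in WT and 30.1 ± 1.55 in the knockout. Epha8 spans chromosome 4 from 136929419 to 136956816, and Ephb2 spans it from 136647539 to 136835988. The log2 change of Epha8 was -0.39 (adjusted p = 0.493).

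**Figure D3:**
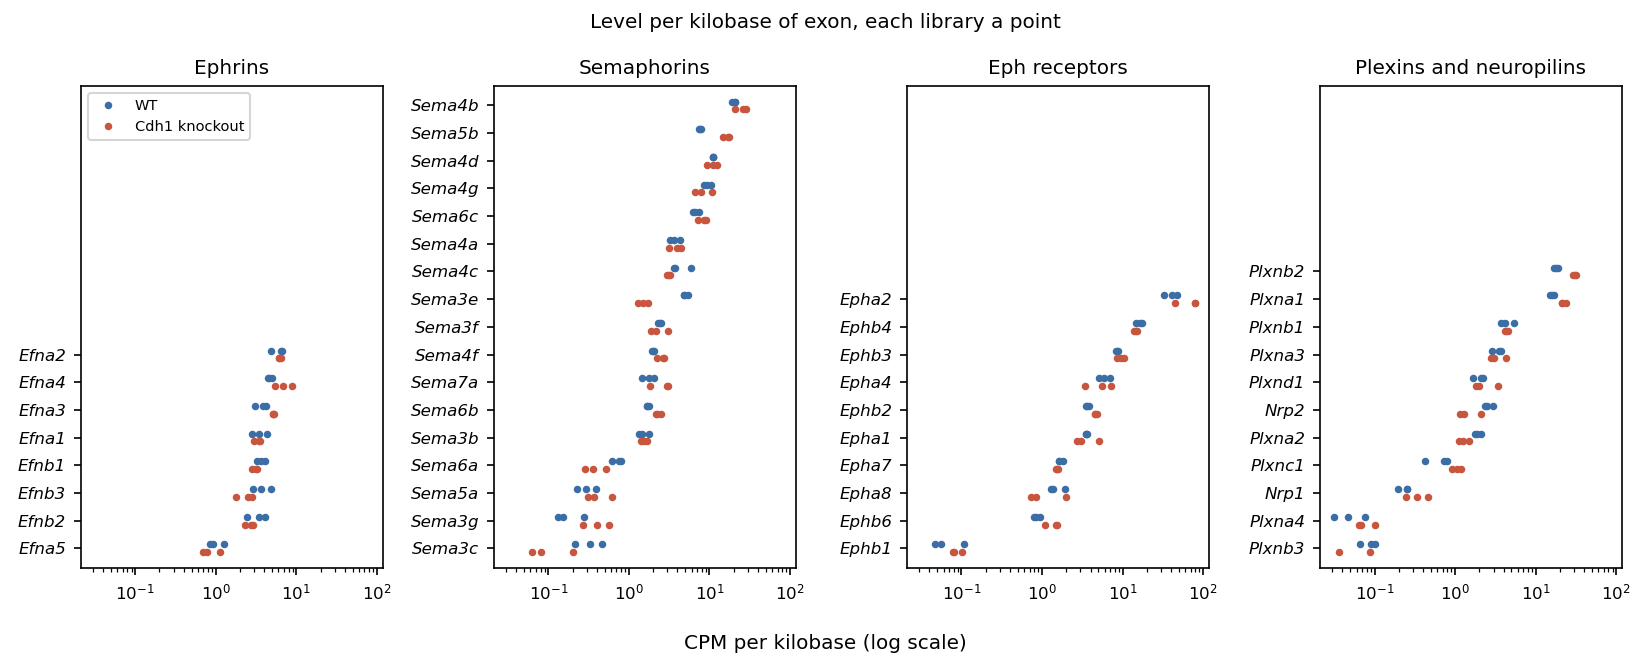
Level per kilobase of exon of the 46 tested guidance genes, in CPM per kilobase on a log axis, by class and in order of their mean. Each point is a library, WT in blue above and the Cdh1 knockout in red below, and the value of 0 of Plxnb3 in knockout C cannot be drawn on this axis. Epha2, Plxnb2, Sema4b and Plxna1 lead, and each class spans more than 1 order of magnitude except the ephrins.

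All 11 plexin and neuropilin genes were tested, of which 2 were called higher and 2 lower (36.4%, beside 13.3% of all tested genes). Plxnb2 and Plxna1 together made up most of the receptor RNA of this class, with 36.6% and 32.4% of the summed level per kilobase in WT. Plxnb2 encodes a receptor of Sema4 ligands and lies on chromosome 15 from 89155549 to 89180788. It was at 117, 125 and 111 CPM in WT and at 208, 191 and 201 CPM in the knockout. The groups were widely separated, with a 1.69-fold higher level (log2 change 0.76, SE 0.08, adjusted p = 3.9e-05). Plxna1, a partner of neuropilins and a receptor of Sema6d, lies on chromosome 6 from 89316314 to 89362620 and rose from 135, 142 and 154 CPM to 190, 193 and 213 CPM (1.38-fold, log2 change 0.47, SE 0.09, adjusted p = 0.00217). Gm26811 on the opposite strand covers 10.7% of its exon bases and averaged 1.22 CPM (WT) and 1.27 CPM (knockout).

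Apart from Plxna2 on chromosome 1, the other plexins were not called. They ran from -0.99 for Plxnb3 to 0.68 for Plxnc1 on the log2 scale. Plxnb1, next in level per kilobase, was at 46.7, 31.9 and 35.8 CPM in WT and at 39.5, 36.5 and 36.8 CPM in the knockout (log2 change -0.02, 95% interval -0.31 to 0.26). Plxna3 had a log2 change of -0.01 (95% interval -0.36 to 0.34). Plxnc1, the receptor of Sema7a, was at 3.11, 5.30 and 5.85 CPM in WT and at 7.63, 6.64 and 8.58 CPM in the knockout, which did not overlap but missed the threshold (log2 change 0.68, adjusted p = 0.0875). Plxna4, Plxnb3 and Nrp1 did not exceed 1.66 CPM in all libraries, a depth at which the 95% interval of each spanned more than 1 log2 unit. The summed level of plexins and neuropilins per kilobase was 49.1 ± 1.10 in WT and 66.8 ± 3.44 in the knockout.

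Both receptor genes that were called lower lie on chromosome 1, where genes as a whole were lower in the knockout. The median log2 change of 1002 tested genes there was -0.33, and 27.8% of them were called lower. Nrp2, a co-receptor for Sema3f and related ligands (chromosome 1, 62703285 to 62818695), was at 30.4, 25.9 and 24.6 CPM in WT and at 21.6, 12.0 and 13.5 CPM in the knockout, without overlap (log2 change -0.79, SE 0.19, adjusted p = 0.0114). Plxna2 (chromosome 1, 194619825 to 194816869), which encodes a receptor of Sema6a, was at 19.27, 22.99 and 20.61 CPM in WT and at 16.47, 12.49 and 13.98 CPM in the knockout (log2 change -0.55, SE 0.14, adjusted p = 0.0192). With the median shifts of chromosomes 1 and 14 taken out of the knockout libraries, neither was called: Nrp2 had a log2 change of -0.47 (adjusted p = 0.141) and Plxna2 one of -0.23 (adjusted p = 0.362). Of the 6 fits that left out 1 library, 3 kept the call of Nrp2 and 2 kept that of Plxna2, and the others ended it. For Nrp2 the adjusted p was 0.0699 without knockout replicate B, 0.0645 without knockout replicate C and 0.074 without WT replicate A. For Plxna2 it was 0.0953 without knockout replicate B, 0.0702 without knockout replicate C, 0.0999 without WT replicate B and 0.0553 without WT replicate C. The rise of Plxnb2, Plxna1, Sema5b, Epha2 and Ephb2 and the fall of Sema3e, which lie on other chromosomes, kept their calls in that fit, and Sema6a had an adjusted p of 0.0536.

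The other members on the shifted chromosomes, Sema4c and Epha4 on chromosome 1 and Sema3g on chromosome 14, were not called. Sema4c was at 15.3, 25.3 and 15.8 CPM in WT and at 13.4, 13.8 and 12.8 CPM in the knockout, with WT B high (log2 change -0.49, adjusted p = 0.0987, and -0.17 with the chromosome shift removed). Epha4 was at 32.1, 43.9 and 37.5 CPM in WT and at 21.8, 34.7 and 45.2 CPM in the knockout (log2 change -0.16, adjusted p = 0.678, and 0.17 with the shift removed). The 622 tested genes of chromosome 14 had a median log2 change of 0.53. Sema3g was at 0.606 to 1.26 CPM in WT and at 1.22 to 2.54 CPM in the knockout (log2 change 1.10, adjusted p = 0.124, and 0.57 with the shift removed).

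**Figure D4:**
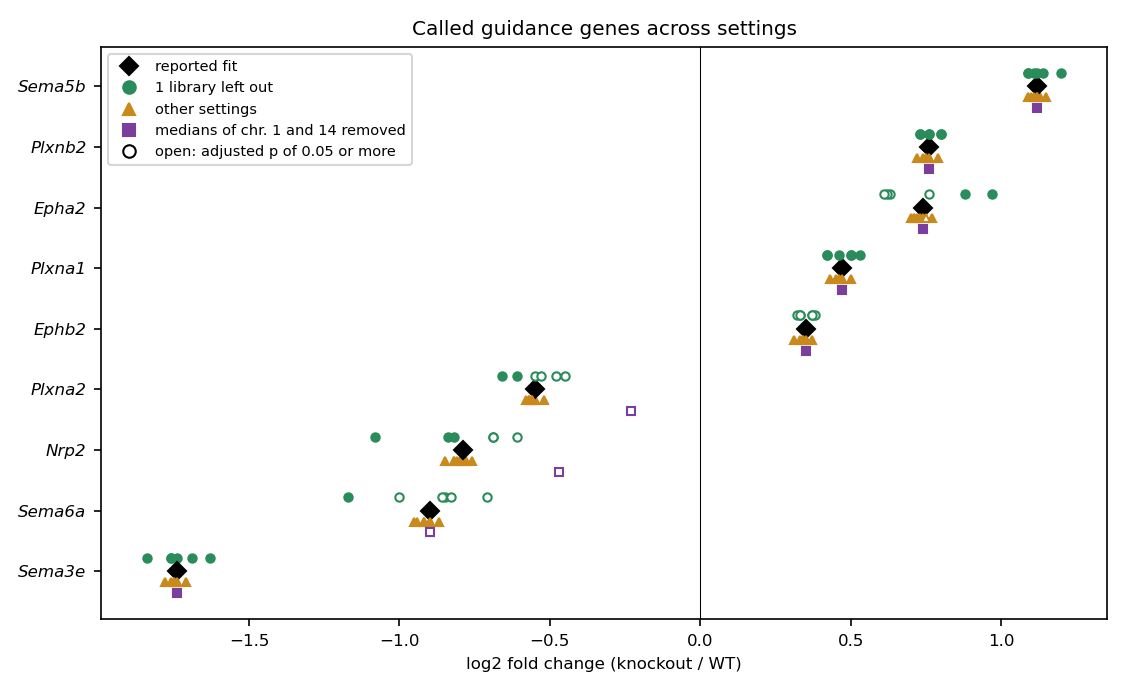
Log2 change of the 9 called genes, knockout over WT, in the reported fit (diamonds), the 6 fits that left out 1 library (circles), other settings (triangles) and the fit with the medians of chromosomes 1 and 14 removed (squares). Open symbols have an adjusted p of 0.05 or more. Sema5b, Plxnb2, Plxna1 and Sema3e have filled symbols throughout, and the squares of Nrp2 and Plxna2 move to -0.47 and -0.23.

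Genes tied to the signalling of these receptors were taken as lists, which hold surface and secreted proteins beside those that act inside the cell. Of 31 listed genes of Eph receptor signalling, all tested, 1 was called higher and 3 lower (median log2 change 0.01). That is 12.9% of the list, near the 13.3% of all tested genes, so the count does not set the list apart. Abl2, a tyrosine kinase that acts on the actin skeleton, fell from 217 ± 9.91 to 138 ± 5.63 CPM and lies on chromosome 1 (log2 change -0.65, adjusted p = 0.000103). Yes1, a kinase of the Src family, fell from 129 ± 4.001 to 85.9 ± 13.4 CPM (log2 change -0.58, adjusted p = 0.00186), and Chn1, a Rac-inactivating protein used by Epha4, fell from 23.9 ± 3.04 to 17.2 ± 0.457 CPM (log2 change -0.47, adjusted p = 0.0277). Grb10, an adaptor from an imprinted gene, rose from 483 ± 85.1 to 813 ± 154 CPM (log2 change 0.75, adjusted p = 0.00195). Genes of the opposite strand cover 13.8% of the exon bases of Yes1 and 14% of those of Chn1.

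Of 38 listed genes of plexin and neuropilin signalling 36 were tested, 4 were called higher and 2 lower (median log2 change 0.09). That is 6 of 36, beside 13.3% of all tested genes. The called genes include the secreted ligand Vegfa (higher) and the surface receptor Met (lower). Crmp1, a collapsin response mediator that passes semaphorin signals to microtubules, fell from 22.9, 19.1 and 16.5 CPM to 5.25, 3.49 and 5.05 CPM (log2 change -2.09, SE 0.20, adjusted p = 8.5e-06). Mras, a small GTPase of the Ras family, to which the GAP domain of plexins is directed, rose from 15.2, 15.5 and 17.8 CPM to 48.2, 89.6 and 84.1 CPM (log2 change 2.20, adjusted p = 4.7e-06). Met, a receptor kinase that can pair with B plexins, fell from 10.9 ± 1.246 to 6.36 ± 1.69 CPM (log2 change -0.78, adjusted p = 0.024).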

How the data were processed

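RNA was extracted with TRIzol and made into libraries with a directional kit, per the labels' protocols. Raw counts for each gene were deposited in a single table. The submitters' processing notes name cutadapt 2.10, STAR 2.7.5b, featureCounts 2.0.1 and the build GRCm38, and the strand setting is not given in the sources used here. The exon length per gene was deposited beside the counts, per the file headers. Symbols came from GENCODE M21 for 55141 of 55401 identifiers. Among counts from 1 to 10, between 78.1% and 83.1% were even, a pattern that counting both mates of a pair can give, so the floor was set at 6 counts per library (0.262 to 0.332 CPM), which covers counting error only.

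Genes were filtered with filterByExpr (edgeR 4.0.16, R 4.3.3), which left 17325, scaled by TMM and tested with glmQLFit and glmQLFTest with genotype as the only term. Adjustment was Benjamini-Hochberg across the 17325 genes, and an adjusted p under 0.05 was a call. Standard errors came from the F statistic. CPM per kilobase divides CPM by exon length. Alternatives were other scalings and filters, DESeq2 1.42.0, limma-voom (limma 3.58.1), the replicate letter as a block, each library left out, counts divided by 2, a threshold of 0.01, and removal of the median shifts of chromosomes 1 and 14. The procedure was tested on simulated data. Named were all called members, the 3 most abundant per class, members on chromosomes 1 and 14, and up to 4 called genes of each pathway list. Of those, 1 gene is not reported here. Any others given by name were chosen after their values were seen. The members and lists were chosen with earlier results of these data known. A comparison of protein sequences was not made.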

Additional observations from a re-analysis of the deposited data

How the results depend on the processing

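The reported fit called 5 guidance genes higher, 4 lower and 2307 genes in all. At a threshold of 0.01 these were 3, 1 and 1242. With every gene of at least 1 count tested, 8 guidance genes were higher and 7 lower. With the medians of chromosomes 1 and 14 removed, 1 was lower, Sema3e. Leaving out 1 library gave 3 to 8 higher, 1 to 6 lower and 1374 to 2784 genes in all, the fewest without WT replicate A and the most without knockout replicate A. The 1470 genes without WT replicate B also moved by over 1.5 times. With WT replicate A or B, or knockout replicate B or C, left out, 3 guidance genes were called higher, and 8 without knockout replicate A, where 6 were lower. With WT replicate A or B left out 2 were lower, and 1 without knockout replicate B. The log2 change of Cdh1 kept its call in all alternatives. The log2 change of 11 tested members crossed 0 in some setting, and 0 of these were called in the reported fit. Values follow for the 4 that the naming rule covers. With 1 library left out, the log2 change of Efna2 ran from -0.08 (without WT replicate A) to 0.15, that of Epha4 from -0.41 to 0.08 (without knockout replicate A), that of Plxnb1 from -0.13 to 0.15 (without WT replicate A, and 0.01 without knockout replicate B) and that of Sema4d from -0.12 to 0.10 (without knockout replicate C). Epha4 was at 0.17 with the chromosome medians removed, and Plxnb1 and Sema4d were at 0.01 with every gene tested. The cause was not tested. The labels do not say whether the letters A to C pair the libraries. Deviations of same-lettered libraries correlated at 0.145, -0.0259 and 0.233 across genes, and those of unlike letters at -0.245 to 0.119. Whether the letters mark a shared batch was not tested. With the replicate letter as a block, 13 guidance genes were called, 7 higher and 6 lower, and 2686 genes in all. The tested members Ephb1 and Plxnb3, under 1 CPM in every library, had standard errors of 0.54 and 0.76 on the log2 scale. At such depth a change as small as the 0.35 of Ephb2 could be missed. The size of change that could be seen there was not tested.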

Other observations

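The guidance families outside the ephrin and semaphorin systems also held called genes in both directions. Of 28 listed Slit, netrin and RGM guidance genes 24 were tested, 3 were called higher and 2 lower (median log2 change 0.12), beside 13.3% of all tested genes called either way. Slit2, a secreted repellent read by Robo receptors, was at 19.6, 32.2 and 18.1 CPM in WT and at 12.0, 8.12 and 9.99 CPM in the knockout libraries (log2 change -1.22, adjusted p = 0.00144). Ntn1, the ligand of Dcc and Unc5 receptors, was at 25.8, 22.3 and 15.6 CPM in WT and at 23.9, 42.9 and 45.6 CPM in the knockout, with knockout A among the WT libraries as for Epha2 (log2 change 0.82, adjusted p = 0.02). Flrt3 rose from 5.13 ± 0.779 to 11.6 ± 3.98 CPM and Flrt1 from 2.91 ± 0.746 to 6.26 ± 1.74 CPM, membrane proteins that bind Unc5 receptors and adhesion GPCRs (adjusted p = 0.00496 and 0.0153).

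Around Sema3e, a window of chromosome 5 from 11383385 to 18730268 held 31 protein-coding genes, of which 5 were tested. Pclo, the next tested gene after Sema3e, was at 3.29, 2.42 and 2.15 CPM in WT and at 0.995, 0.786 and 1.26 CPM in the knockout (log2 change -1.37, adjusted p = 0.0204). Cacna2d1 and Gnai1 in the same window had log2 changes of 0.16 (adjusted p = 0.629) and 0.32 (adjusted p = 0.303). The window was chosen after the value of Sema3e was seen.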
